A study of Mus musculus with 6 samples.

Results

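Amino acid transporters were examined as a set of 10 genes among the 22180 genes measured in mouse adipose tissue. They were Slc43a1, Slc43a2, Slc7a5, Slc3a2, Slc7a8, Slc7a10, Slc1a5, Slc1a3, Slc38a1 and Slc38a2. Each gene was represented by the probe set that carried its symbol alone and had the highest mean over the 6 arrays. The probe sets were thus chosen by their mean level, which is given below only as a description, and the contrast between groups was not part of the rule. All 10 genes were found, and no filter on low values was applied. The arrays came from offspring aged 32 weeks, with 1 array per sample. In the chromium restriction group (n = 3) the dams had been kept on a diet restricted in chromium, a trace metal, and in the control group (n = 3) they had been kept on a control diet. Arrays are called restricted arrays 1, 2 and 3 and control arrays 1, 2 and 3 below, by the replicate numbers of the labels. Strain, sex, fat depot, the diet of the offspring themselves and whether samples came from separate animals or litters could not be learned from the labels. A p-value here therefore reflects the spread among these 6 samples and may be technical in part. The question put by the design is how adipose gene expression of the offspring differs with the maternal diet.

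Amino acids cross the plasma membrane through carriers of several families that differ in substrate and in driving force. The SLC43 carriers are facilitators of large neutral amino acids such as leucine, whereas the SLC7 light chains work as exchangers and need the glycoprotein heavy chain encoded by Slc3a2 (CD98) to reach the surface. SLC1 carriers move glutamate or small neutral amino acids with sodium, and the SLC38 carriers named here accumulate glutamine and alanine with sodium. In fat, branched-chain amino acids feed adipocyte metabolism, leucine signals through mTORC1, and Slc7a10 (Asc-1) is known as a surface protein of white adipocytes.

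None of the 10 transporter genes was called at an adjusted p of 0.05 by limma, the linear model test fitted to all genes (0 of 10, against 0.194% of all genes). At an unadjusted p under 0.05 there were 4 of the 10, Slc43a1, Slc1a3 and Slc1a5 with lower values and Slc7a8 with higher values in the restricted group, where 5.95% of all genes met that limit (3.53% lower and 2.42% higher). In 3 of the 10, Slc43a1, Slc1a3 and Slc1a5, all 3 restricted arrays lay below all 3 controls, against 6.06% of all genes. In 0 of the 10 did they all lie above, against 3.53% of all genes, and 9.6% of all genes separated the groups in either direction. The fitted difference was below 0 for 6 genes (56.8% of all genes) and above 0 for 4, with a median of -0.07 on the log2 scale, and over all genes the median was -0.02. The genes had been chosen with results of these data known, so these shares describe the set and do not test it.

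Markers of other tissues differed between the arrays. Fabp4, the adipocyte fatty acid binding protein, was at 13.53 to 13.72 (log2) on every array. The mean of 15 hepatocyte markers was 11.03 and 10.55 in restricted arrays 1 and 3, and 6.40 to 6.82 on the other 4 arrays, with Alb, albumin, at 13.72 and 13.55 against 9.17 to 9.98. Apoa1, one of these 15, was above the controls (5.50 to 6.27) on all 3 restricted arrays, at 10.13, 7.44 and 9.56. Cyp2e1, another of them, was below the controls (13.11 to 13.28), at 12.79 to 12.88, and the rest overlapped. The mean of 12 intestinal epithelium markers was 5.86, 6.89 and 5.75 in restricted arrays 1, 2 and 3 and 5.29 to 5.49 in controls. Sis and Muc13, from this list, were high on restricted array 2 alone, at 7.09 and 7.55. On all other arrays Sis was at 4.53 to 4.62 and Muc13 at 4.85 to 5.02. Of these 12, limma called 2 (0.194% of all genes), both higher on all 3 restricted arrays. Fabp2, which binds fatty acids in enterocytes, was at 7.30, 7.15 and 7.31 against 5.04 to 5.50 (adjusted p = 0.00358), and Apoa4, an apolipoprotein of gut and liver, was at 10.34, 9.90 and 9.47 against 6.69 to 7.32 (adjusted p = 0.0120). Restricted array 2 was highest in 11 T and B lymphocyte markers (7.80, against 6.05 to 6.25 on the other arrays). Of 11 macrophage and dendritic cell markers limma called 0. At an unadjusted p under 0.05, 4 were higher and 1, Cd163, was lower (2.42% and 3.53% of all genes). Each of these separated the groups without overlap, against 9.6% of all genes. Mpeg1, perforin-2 of macrophages, was at 8.65, 8.39 and 8.72 against 7.82 to 7.91 (adjusted p = 0.145), and H2-Ab1, H2-Aa and Itgax differed by 0.32, 0.37 and 0.52. The part of these cell types in the transporter differences was not tested. The brown adipocyte gene Ucp1 was at 10.25 and 7.37 in control arrays 1 and 3 and at 4.87 to 4.94 elsewhere. Among white adipocyte markers, 2 genes in rows with extra digits went opposite ways, with Retn higher (difference 1.52) and Adipoq lower (-1.22). Leaving out these 2 and Slc7a10 itself, all 12 measured white adipocyte markers had a lower mean in the restricted group, against 56.8% of all genes. Their list mean was 0.62, 0.30 and 0.30 below the control mean in restricted arrays 1, 2 and 3. One of the 12, Cidea, is also in the brown adipocyte list and was at 10.73, 6.17 and 7.32 in control arrays 1, 2 and 3 and at 5.75 to 5.95 in the restricted group. Without Cidea the mean of the other 11 was 0.46, 0.13 and 0.12 below the control mean. In whole tissue, fewer adipocytes and less of a transcript per adipocyte cannot be told apart. Rows with extra digits are the 64 probe sets in which some values were written to more digits than the rest of the table. None of the 10 transporter genes lay in one.

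Proximal promoters are shown for the genes on which the comparison turned: Slc43a1 and Slc1a3, with the largest lower differences of the set, and Slc7a8, with the largest higher one. They are the 250 bases before the 1 start that the table lists for each gene, from RefSeq on GRCm38.p6, each read 5′ to 3′ on the gene's strand. Capitals mark 3 motifs on either strand: CACGTG (an E-box, the core bound by MYC and by clock factors), CCAAT (read ATTGG on the other strand) and GGGCGG (a GC box, read CCGCCC on the other strand). The marked matches do not overlap. The Slc43a1 window lies at chr2:84840073-84840322 on the plus strand, that of Slc1a3 at chr15:8710808-8711057 on the minus strand and that of Slc7a8 at chr14:54781887-54782136 on the minus strand.
Slc43a1: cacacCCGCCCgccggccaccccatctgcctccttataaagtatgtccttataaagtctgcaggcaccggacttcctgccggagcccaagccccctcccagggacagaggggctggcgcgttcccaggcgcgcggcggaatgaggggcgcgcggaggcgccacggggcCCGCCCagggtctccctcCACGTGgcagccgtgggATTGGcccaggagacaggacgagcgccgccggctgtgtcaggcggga
Slc1a3: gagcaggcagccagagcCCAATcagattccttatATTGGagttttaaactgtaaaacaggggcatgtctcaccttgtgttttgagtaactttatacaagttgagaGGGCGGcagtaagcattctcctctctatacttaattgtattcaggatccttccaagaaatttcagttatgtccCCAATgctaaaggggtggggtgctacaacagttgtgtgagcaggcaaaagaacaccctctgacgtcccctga
Slc7a8: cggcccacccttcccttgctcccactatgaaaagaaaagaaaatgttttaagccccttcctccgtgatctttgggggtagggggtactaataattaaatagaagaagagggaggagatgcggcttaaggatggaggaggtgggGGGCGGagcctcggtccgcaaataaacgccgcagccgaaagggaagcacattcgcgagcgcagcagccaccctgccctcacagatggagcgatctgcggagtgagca

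The RefSeq table held 8 promoters of 7 of the 10 genes, and none of Slc7a5, Slc1a5 or Slc38a1. CACGTG was found in that of Slc43a1 alone, 64 bases before the start, and in 6.02% of the 32851 promoters of the table over the same 250 bases. CCAAT was found in those of 3 genes, Slc43a1, Slc43a2 and Slc1a3, against 33.8% of all promoters, and GGGCGG in those of all 7 genes, against 32.7%. TGATGNAA, core letters of the element through which ATF4 acts in amino acid shortage, was found in none of the 8 windows and in 3.45% of all promoters. Sequence outside these windows, introns included, was not searched, so such an element elsewhere in these genes would have been missed. The printed window of Slc43a1 was 70.8% G or C, that of Slc7a8 55.6% and that of Slc1a3 44.8%. Such matches are letters only, and no binding was measured.

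Slc43a1 encodes LAT3, a facilitator that carries leucine, isoleucine, valine and phenylalanine down their gradient. Its value was 7.11, 7.19 and 7.34 in restricted arrays 1, 2 and 3, and 8.23, 7.91 and 8.28 in control arrays 1, 2 and 3. All 3 restricted arrays were low, and the groups were 0.57 apart at their nearest values. The means were 7.21 ± 0.11 and 8.14 ± 0.20 (log2, SD, n = 3). The level was 1.90-fold lower in the restricted group. The log2 difference was -0.93 ± 0.12 (SE), with a 95% interval of -1.23 to -0.63, an unadjusted p of 0.000237 and an adjusted p of 0.101 in limma. Of all genes, 0.221% had a difference as low or lower.

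Slc43a1 was 1.03, 0.95 and 0.80 below the control mean on the log2 scale in restricted arrays 1, 2 and 3. The hepatocyte marker mean of the same arrays was 4.37 above, 0.26 below and 3.90 above the control mean. Without restricted arrays 1 and 3 the difference was -0.95. The mean of the 11 white adipocyte markers without Cidea was 0.46, 0.13 and 0.12 below the control mean. Fabp2, Apoa4, Apoa1 and Mpeg1 were above all controls on each of these arrays. That held for 1 of 15 hepatocyte, 4 of 12 intestinal and 4 of 11 macrophage and dendritic markers, against 3.53% of all genes. Cyp2e1 of the hepatocyte list and Cd163 of the macrophage list were below all controls, against 6.06% of all genes. The part of adipocyte content or of other tissues in the Slc43a1 difference was not tested. Control array 2, the control with the least brown adipocyte transcript, was the lowest control, and against it alone the difference was -0.69. The gene's adjusted p passed 0.05 with quantile normalization (0.0330), with trend and robust options of eBayes (0.0439) and without restricted array 2 (0.0497). It was 0.812 when the rows with extra digits, which hold 40 of the 43 called genes, were left out of the table, and over 18 alternatives it ran from 0.0330 to 0.99995.

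Slc43a2 encodes LAT4, the closest relative of LAT3, with similar substrates. It ranged from 6.38 to 6.76 over the 6 arrays, with the groups interleaved. Its difference was -0.07, and the 95% interval of -0.37 to 0.23 left room for a change of either sign. Taken within each array, Slc43a1 less Slc43a2 was lower in the restricted group by 0.86 on average, and the 3 restricted arrays (-1.13, -0.92 and -0.53 from the control mean) lay below the 3 controls (-0.08 to 0.04). Slc43a2 itself differed by only -0.07, so this shift mostly restates the difference of Slc43a1.

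**Figure D1:**
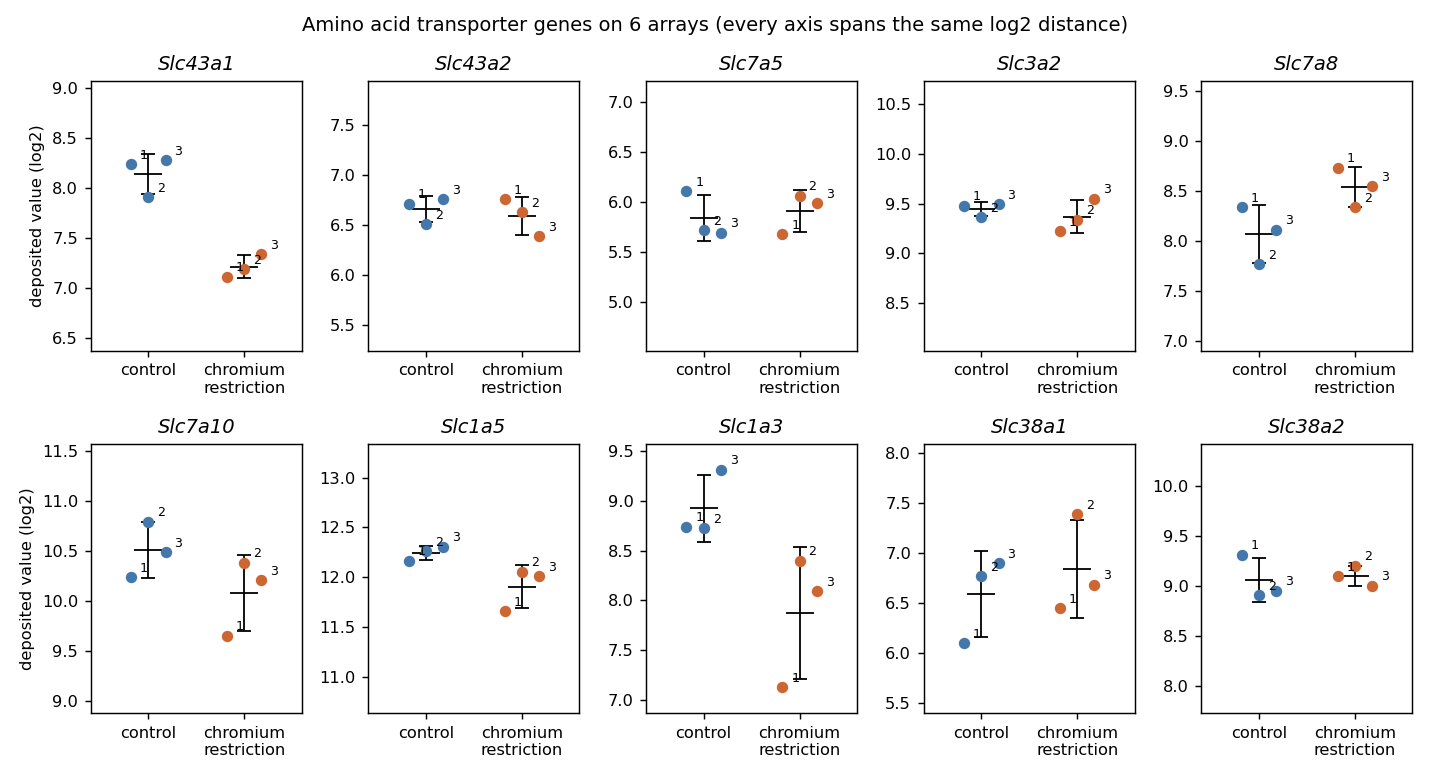
Deposited log2 value of each of the 10 transporter genes on the 6 arrays; points are arrays numbered by replicate, and the bars are the group mean ± SD (n = 3). The 3 restricted arrays lie below the 3 controls for Slc43a1, Slc1a5 and Slc1a3, and the groups overlap for the other genes; levels of different genes are not comparable.

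Subunits of the heteromeric carriers are taken one by one, and none was called. Slc3a2, the shared heavy chain, ranged only from 9.22 to 9.55, at 9.37 ± 0.16 in the restricted group and 9.44 ± 0.07 in controls (SD, n = 3). Its difference was -0.08, with a 95% interval of -0.32 to 0.17. Slc7a5 encodes LAT1, the light chain that exchanges glutamine for leucine in growing and activated cells. It lay close to the array medians, at 5.68 to 6.11, and exceeded the median gene of its array (5.83 to 5.93) on 3 of them. Its difference was 0.07, with a 95% interval of -0.31 to 0.45, and the sources used here do not state the background level of the arrays.

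Slc7a8 encodes LAT2, a light chain that exchanges a wide range of neutral amino acids. Its value was 8.73, 8.34 and 8.55 in restricted arrays 1, 2 and 3, and 8.34, 7.77 and 8.11 in control arrays 1, 2 and 3. Restricted array 2 and control array 1 were level, so the groups touched, while the other arrays were ordered by group. The means were 8.54 ± 0.20 and 8.07 ± 0.29 (SD, n = 3), which is a 1.38-fold higher level. The difference was 0.47 ± 0.17 (SE), with a 95% interval of 0.05 to 0.89, an unadjusted p of 0.0342 and an adjusted p of 0.817 in limma. Of all genes, 2.39% had a difference as high or higher.

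The higher arrays for Slc7a8 were the ones rich in hepatocyte transcripts, and their part in the difference was not tested. With restricted array 2 alone against the controls the difference was 0.26, and with 7 liver genes as a covariate it was 0.28. Without restricted arrays 1 and 3 the restricted group is array 2 alone, and the fit with the covariate rests mostly on that array as well. Without control arrays 1 and 3, which held brown adipocyte transcripts, it was 0.77. Within each array Slc7a8 less its heavy chain Slc3a2 was higher by 0.54 in the restricted group, where the 3 arrays (0.88, 0.37 and 0.37 from the control mean) lay above the 3 controls (-0.23 to 0.23). Against Slc7a5 the corresponding shift was 0.40, and the groups overlapped.

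Slc7a10, the small neutral amino acid exchanger of white adipocytes, was at 9.65, 10.38 and 10.20 in restricted arrays 1, 2 and 3 and at 10.24, 10.79 and 10.49 in control arrays 1, 2 and 3. The groups overlapped, since restricted array 2 lay above control array 1. The difference was -0.43 ± 0.23 (SE), with a 95% interval of -0.97 to 0.12 and an adjusted p of 0.848 in limma. Restricted array 1, which was lowest in Slc7a10, was also lowest in the mean of the 11 white adipocyte markers without Cidea (0.46 below the control mean, against 0.13 and 0.12 below in restricted arrays 2 and 3). Without that array the difference was -0.21, without control array 2 it was -0.28, and with restricted array 2 alone against the controls it was -0.13. Against control array 2 alone, without the controls that held Ucp1, it was -0.71. The part of adipocyte content in these values was not tested.

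**Figure D2:**
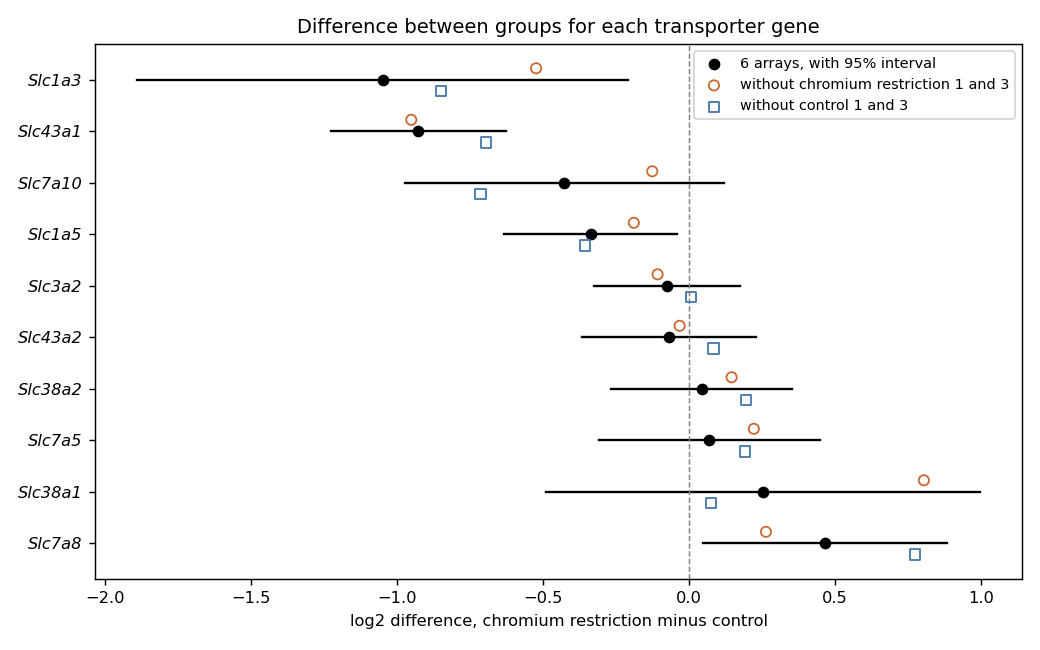
Log2 difference between groups (chromium restriction minus control) for each transporter gene, with limma's 95% interval from 6 arrays; open circles leave out restricted arrays 1 and 3, and open squares leave out control arrays 1 and 3. Without the hepatocyte-rich restricted arrays Slc43a1 goes from -0.93 to -0.95 and Slc1a3 from -1.05 to -0.52. Without control arrays 1 and 3 they are at -0.69 and -0.85.

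Slc1a3 and Slc1a5, the SLC1 carriers among the 10 genes, had lower values in the restricted group, and neither was called. The other SLC1 carriers, which were not among the 3 of their list with the smallest p, had overlapping groups and mixed directions. Slc1a1 and Slc1a2, which also take up glutamate with sodium, differed by 0.28 and 0.41. Slc1a4, Slc1a6 and Slc1a7 differed by -0.23, -0.006 and -0.15. Slc1a3 encodes EAAT1 (GLAST), which takes up glutamate and aspartate. Its value was 7.13, 8.40 and 8.09 in restricted arrays 1, 2 and 3, and 8.74, 8.72 and 9.31 in control arrays 1, 2 and 3. All restricted arrays were below all controls, and restricted array 1 was far below the rest. The means were 7.87 ± 0.66 and 8.92 ± 0.33 (SD, n = 3), which is a 2.07-fold lower level. The difference was -1.05 ± 0.35 (SE), with a 95% interval of -1.89 to -0.21, an unadjusted p of 0.0221 and an adjusted p of 0.777 in limma. Of all genes, 0.135% had a difference as low or lower. Without restricted array 1 the difference was -0.68. With restricted array 2 alone against the controls it was -0.52, and with the liver genes as a covariate it was -0.54.

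Slc1a5 encodes ASCT2, an exchanger of glutamine, serine and other small neutral amino acids. Its value was 11.66, 12.06 and 12.01 in restricted arrays 1, 2 and 3, and 12.17, 12.26 and 12.31 in control arrays 1, 2 and 3. The controls were tight and above every restricted array, of which restricted array 1 was again the lowest. The difference was -0.34 ± 0.12 (SE), a 1.26-fold lower level, with an unadjusted p of 0.0312 and an adjusted p of 0.817 in limma. It was -0.21 without restricted array 1, and -0.19 with restricted array 2 alone against the controls. Slc1a5 was the 1 gene of the set with another probe set. That probe set was at 8.20, 8.36 and 8.82 in the restricted group and at 8.66, 9.19 and 9.07 in controls. It differed by -0.52, in the same direction, but its groups overlapped.

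Within each array, Slc1a3 less Slc1a5 was lower by 0.71 in the restricted group. The 3 restricted arrays (-1.21, -0.33 and -0.60 from the control mean) lay below the 3 controls (-0.22 to 0.32), so the pair shifted by unequal amounts on these arrays. Slc7a10 less Slc3a2 shifted by -0.35 and Slc38a1 less Slc38a2 by 0.21, both with overlapping groups. How often such within-array differences separate the groups over other gene pairs was not computed.

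Slc38a1 and Slc38a2, the SLC38 carriers among the 10 genes, had overlapping groups. Slc38a1 encodes SNAT1, a glutamine carrier that is also used by lymphocytes. It was at 6.45, 7.39 and 6.69 in restricted arrays 1, 2 and 3, and at 6.10, 6.77 and 6.90 in control arrays 1, 2 and 3. One array was high, restricted array 2, the array in which T and B lymphocyte markers averaged 1.59 above the control mean; the part of lymphocytes in its value was not tested. The difference of Slc38a1 was 0.25 with a 95% interval of -0.49 to 0.998, it was -0.02 without that array, and it was 0.01 without control array 1. Slc38a2 encodes SNAT2, the carrier that cells induce when amino acids run short. It ranged from 8.91 to 9.32, with a difference of 0.04 and a 95% interval of -0.27 to 0.35.

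The arrays of the restricted group did not contribute evenly. Restricted array 1 had the lowest value of the 3 for 7 of the 10 genes, restricted array 2 for 1 and restricted array 3 for 2. Restricted array 2 had the highest of the 3 for 6 genes. The mean over the 10 genes was 0.40, 0.05 and 0.17 below the control mean in restricted arrays 1, 2 and 3. Restricted array 1 was also the lowest in white adipocyte markers and the highest in hepatocyte markers (4.37 above the control mean), and the part of either in the transporter values was not tested. The 3 restricted values of Slc43a1 spanned 0.22, against 1.27 for Slc1a3 and 0.73 for Slc7a10.

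**Figure D3:**
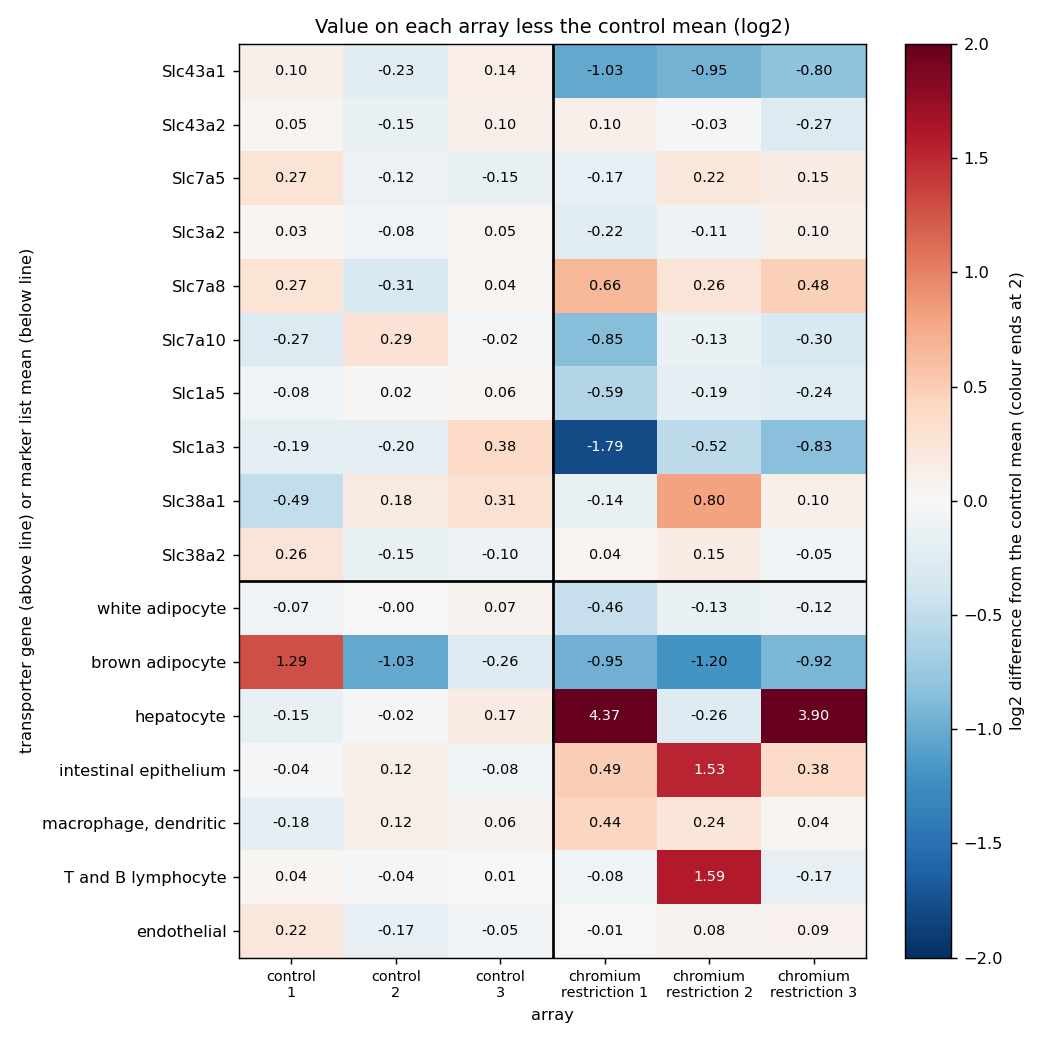
Value of each transporter gene (above the line) and mean of each marker list (below the line) on each array, less the mean of the 3 controls, in log2 units; the colour scale ends at 2. Slc43a1 is 0.80 to 1.03 below the control mean on all 3 restricted arrays, and the hepatocyte marker mean is 4.37 and 3.90 above it on restricted arrays 1 and 3. The white adipocyte row is the mean of 11 markers, without Cidea.

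Other amino acid carriers were taken as a list of 43 genes, of which 42 were measured. In limma 0 of the 42 passed an adjusted p of 0.05, while 3 had an unadjusted p under 0.05 with higher values and 4 with lower values. Over all genes these shares were 0.194%, 2.42% and 3.53%. The median difference of the list was -0.0033, with 20 higher and 22 lower. Slc25a44, the mitochondrial carrier of branched-chain amino acids, was at 7.05, 7.50 and 7.36 in restricted arrays 1, 2 and 3 and at 7.98, 7.93 and 8.14 in controls. It differed by -0.71 (adjusted p = 0.396), and the groups did not overlap. Slc6a6, the taurine transporter, differed by -0.63 (adjusted p = 0.636), with restricted arrays at 8.97 to 9.30 and controls at 9.63 to 10.08. Slc3a1, the heavy chain of the cystine carrier of kidney and gut, differed by 0.71 (adjusted p = 0.617), and its restricted values of 6.50, 5.91 and 6.24 were above the controls at 5.39 to 5.69.

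The largest differences among the other carriers lay on the hepatocyte-rich arrays. Slc38a4 and Slc38a3, sodium-coupled carriers abundant in liver, were named after their values were seen. Slc38a4 was at 10.48 and 9.85 in restricted arrays 1 and 3, at 5.69 in restricted array 2 and at 5.28 to 5.53 in controls. Slc38a3 was at 10.42 and 9.58 in those arrays, at 6.76 in restricted array 2 and at 6.30 to 7.04 in controls. Both were high where hepatocyte markers were high. The part of hepatocyte transcripts in these differences was not tested.

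Genes that sense amino acids for mTORC1 were lower in 17 of 26 (56.8% of all genes), with a median difference of -0.07, and 0 passed an adjusted p of 0.05 in limma. At an unadjusted p under 0.05 there were 2, both lower (3.53% of all genes). Fnip1, a partner of folliculin, differed by -0.34 and Rragc, a Rag GTPase that recruits mTORC1 to lysosomes, by -0.35. In these 2 of the 26, all restricted arrays lay below all controls, against 6.06% of all genes. In 0 of the 26 did they all lie above, against 3.53% of all genes. Sesn2, a leucine sensor, was the third by p, at 6.98 to 7.44 in the restricted group and 6.47 to 7.09 in controls, with overlap.

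Genes of the response to amino acid deprivation were split, with 10 of 19 higher and 9 lower, a median of 0.01 and 0 past an adjusted p of 0.05 in limma. At an unadjusted p under 0.05, 2 were higher and 2 lower (2.42% and 3.53% of all genes). Asns, asparagine synthetase, was at 7.86, 8.74 and 8.65 in restricted arrays 1, 2 and 3 and at 8.99 to 9.35 in controls, a difference of -0.77 (adjusted p = 0.770). Nupr1, a stress-induced nuclear protein, differed by -0.46 (adjusted p = 0.547). Shmt2, the mitochondrial serine hydroxymethyltransferase, differed by 0.79 (adjusted p = 0.317), but its row is one of those with extra digits.

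Enzymes that handle the substrates of these carriers were mixed in direction. Of 11 measured glutamine, glutamate and aspartate enzymes 6 were higher and 5 lower, and 0 passed an adjusted p of 0.05 in limma. At an unadjusted p under 0.05, 1 was higher and 3 lower (2.42% and 3.53% of all genes). Glul, glutamine synthetase, was at 11.74, 11.72 and 11.54 in restricted arrays 1, 2 and 3 and at 12.23, 12.16 and 11.93 in control arrays 1, 2 and 3, a difference of -0.44 (adjusted p = 0.636) without overlap. Got1, the cytosolic aspartate aminotransferase, was at 8.49, 7.24 and 8.07 against 6.67 to 6.91, highest on the hepatocyte-rich arrays, and that part was not tested. Of 14 serine, glycine and glutathione enzymes 9 were higher and 5 lower, and 0 passed an adjusted p of 0.05 in limma. At an unadjusted p under 0.05, 1 was higher and 1 lower (2.42% and 3.53% of all genes). After Shmt2 the smallest p belonged to Srr, serine racemase, at -0.24 and Cbs, cystathionine beta-synthase, at 0.58. Cbs was at 7.36 and 7.09 on the hepatocyte-rich arrays and at 6.28 to 6.36 on the others.

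**Figure D4:**
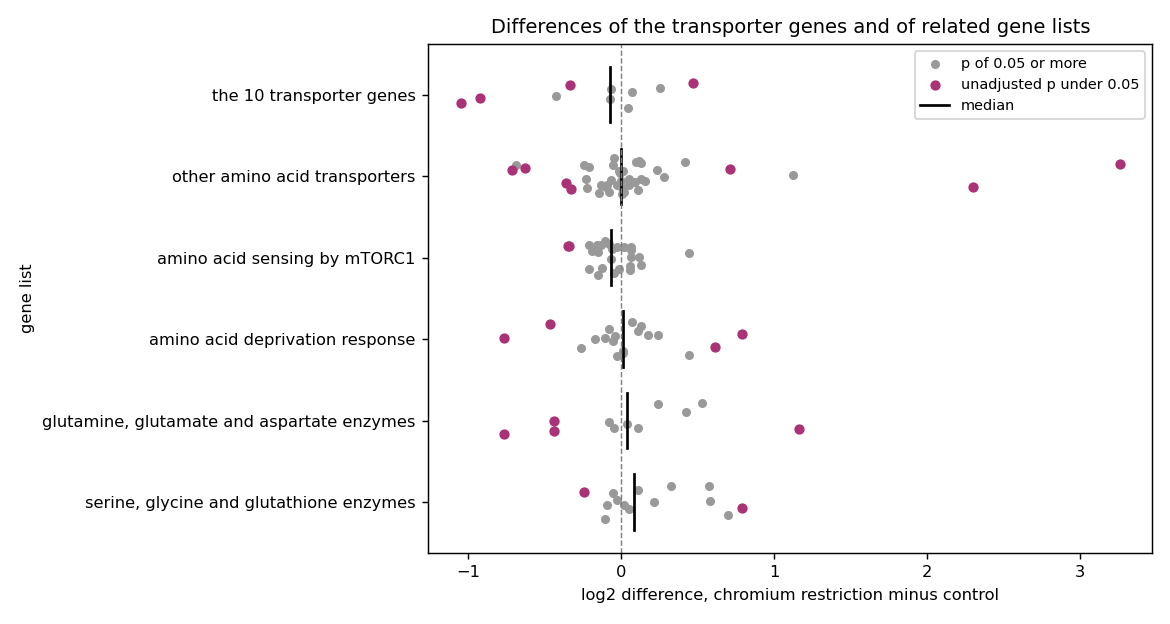
Log2 difference (chromium restriction minus control) of each gene in the transporter set and in 5 related lists; a coloured point has an unadjusted p under 0.05 in limma and the bar is the list's median. The medians lie between -0.07 and 0.08, and the points furthest to the right are Slc38a4 (3.26) and Slc38a3 (2.30).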

How the data were processed

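Per the labels, biotin-labelled total RNA of adipose tissue was read on arrays of a single colour. The deposited table holds 33793 probe sets on 6 arrays. Its values, from 3.49 to 14.86, were taken to be log2 intensities as the authors deposited them; the log base, summarisation and normalization are not stated in the sources used here. All 6 columns were used without further normalization. Platform annotation gave 1 symbol to 23521 probe sets, and the brightest probe set of each of 22180 genes was tested. Groups were compared with limma 3.58.1 in R 4.3.3 (lmFit, eBayes), as a two-sided test; p-values were adjusted over all genes by Benjamini and Hochberg, and limma called 43 genes. The fit was tested on simulated data with independent noise in both groups, its spread based in part on the controls. That setting leaves out the uneven tissue markers of the restricted arrays, so it does not show how the fit behaves with them. Precision is limited by the number of arrays, 3 in each group.

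In 64 probe sets some values carried more digits than a single-precision number, unlike the rest of the table; the sources used here do not say how they arose. Whether the replicate numbers pair the arrays is not said by the labels, and the main fit treated the arrays as unpaired. The 10 genes, the related lists, the tests and the alternatives were chosen with earlier results of these data known; leaving out 2 controls together and the within-array differences were added after seeing the values. Genes named are the 10, the 3 of each related list with the smallest p, and a few array markers, unless stated otherwise. List genes without a single-symbol probe set, such as Slc6a9, were not analysed here.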

Additional observations from a re-analysis of the deposited data

How the results depend on the processing

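Each result was recomputed under 18 alternatives. Of 179 differences of single transporter genes, 165 kept their direction and their side of the adjusted p threshold, and of 68 counts, 47 stayed within 1.5 times the count reported. Some alternatives left each transporter difference as it was: the filter on dim genes, trend and robust options, the replicate block and leaving out rows with extra digits. Direction was fixed in advance there, both in this total and in the directions given next. Slc43a1, Slc1a3, Slc1a5 and Slc7a10 stayed below 0 and Slc7a8 above 0 under all 18, and Slc43a1 kept an unadjusted p under 0.05 in all 18 (differences of -1.04 to -0.69). The number of transporter genes called was 1 (Slc43a1) with quantile normalization, 1 (Slc43a1) with trend and robust options, and 0 to 1 on leaving out single arrays. The number at an unadjusted p under 0.05 in limma was 1 with liver genes as covariate and 1 to 5 on leaving out single arrays. The share of all genes at that limit is not given for these settings, so the counts cannot be set against it. The number of the 10 whose groups did not overlap was 5 without the liver-rich arrays (44.8% of all genes), 6 without control arrays 1 and 3 (46.6% of all genes), and 3 to 6 on leaving out single arrays (16.8% to 25.2% of all genes). Over all genes, 0 were called without rows with extra digits, 6 without the liver-rich arrays, 0 without control arrays 1 and 3, and 24 to 439 on leaving out single arrays, highest without restricted array 2. With the replicate number as a block, limma called 0 genes and 0 transporter genes, and 5 transporter genes had an unadjusted p under 0.05. Deviations of same-numbered arrays correlated at -0.12 to 0.078, and those of differently numbered arrays at -0.22 to 0.28. So few correlations, from arrays that also differed in markers of other tissues, cannot decide whether the numbers pair the arrays. Differences near 0 changed sign: Slc3a2 to 0.011 and Slc38a2 to -0.0059 with array weights, Slc43a2 to 0.084 and Slc3a2 to 0.0064 without control arrays 1 and 3. On leaving out single arrays they ran from -0.15 to 0.033 for Slc43a2, -0.0071 to 0.20 for Slc7a5, -0.022 to 0.45 for Slc38a1 and -0.032 to 0.17 for Slc38a2. The cause of these changes was not tested. Fits with 1 array in a group assume that it varies like the others. Slc7a5 was lost to the filter on dim genes.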

Other observations

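A few other carriers, named after their values were seen, add to the range of patterns. Slc38a9, the lysosomal arginine sensor of mTORC1, was at 7.34, 7.55 and 7.22 in restricted arrays 1, 2 and 3 and at 7.67 to 7.80 in controls (difference -0.36, unadjusted p = 0.0117 in limma). Slc16a10, a carrier of aromatic amino acids, was at 7.71, 7.94 and 7.78 against 7.95 to 8.24 (difference -0.33, unadjusted p = 0.0249 in limma). Slc36a2, a proton-coupled carrier found on adipocytes, was at 8.16 and 8.53 in restricted arrays 1 and 3, at 9.41 in restricted array 2 and at 9.29 to 9.59 in controls, so it was low on the hepatocyte-rich arrays alone. Slc7a7 and Slc7a6, further light chains of CD98, differed by 0.05 and -0.09, and Slc7a11, the cystine exchanger, stayed at 4.44 to 4.74 on all 6 arrays.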
